A study of Mus musculus with 16 samples.

Results

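The 42 cell cycle genes described here were given as a list of names, 20 that act at the G1/S transition and in DNA replication and 22 that act in G2 and mitosis. Every one of them was found by its Ensembl identifier among the 32697 genes of the count table, and all 42 were among the 16040 genes with enough counts to be tested. They were read in 16 RNA-seq libraries made from YUMM1.7 tumours, a transplanted mouse melanoma, grown to between 200 and 350 mm3 in mice labelled female, and the RNA is said to come from sorted cDC1s, the type 1 conventional dendritic cells that cross-present tumour antigen. The genotype labels form 4 groups of 4 libraries. IKKbFF libraries, called Ikbkb controls here, carry floxed Ikbkb, and IKKbdeltaXCR1 libraries, called Ikbkb-deleted, are labelled as deleted for Ikbkb, which encodes the NF-kB-activating kinase IKK-beta. IRF1FF libraries are called Irf1 controls, and IRF1deltaXCR1 libraries are labelled as deleted for Irf1, which encodes an interferon-induced transcription factor. Each deletion label names XCR1, a chemokine receptor of cDC1s, without describing the Cre line, and all 4 groups bore the same tumour line with no other treatment named. The protocols name only the Ikbkb mice, so the Irf1 groups rest on the genotype label, and no label says whether libraries of a group came from separate animals, so p-values speak only to the spread among libraries, which may be technical.

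A dividing cell passes from G1 into S phase when cyclin D and cyclin E kinases inactivate the retinoblastoma protein and free E2F factors, which switch on the genes for replication origins, the MCM helicase and nucleotide supply. Genes for mitosis are switched on later, in G2. Many of their promoters hold CHR and CCAAT elements, which are bound by the repressive DREAM complex, the activating MMB-FOXM1 complexes and NF-Y. Dendritic cells arise from precursors that divide, and pre-cDCs keep dividing after they reach tissues, while tumour cells and activated T cells are other dividing cells of a tumour. In RNA from bulk cells, fewer dividing cells and less RNA of a gene per dividing cell cannot be told apart.

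Promoters of 6 members are shown for these letters, 4 of G2/M and 2 of replication, whose values are given further on. Each is the 250 bases before the start of transcription in RefSeq (GRCm38.p6), 5′ to 3′ on the gene's own strand, and capitals mark every CHR match (TTTGAA or TTCGAA), every CCAAT match and every E2F match (TTTCCCGC, TTTGGCGC, TTTCGCGC or TTTGCCGC) on either strand. In Mcm5 the capitals of TTTCGCGC and of TTTGGCGC on the opposite strand overlap. Mki67 lies at chr7:135716380-135716629 (minus strand), Top2a at chr11:99024190-99024439 (minus strand), Ccnb2 at chr9:70421555-70421804 (minus strand), Cdk1 at chr10:69352913-69353162 (minus strand), Mcm5 at chr8:75109259-75109508 (plus strand) and Mcm2 at chr6:88898781-88899030 (minus strand).
Mki67: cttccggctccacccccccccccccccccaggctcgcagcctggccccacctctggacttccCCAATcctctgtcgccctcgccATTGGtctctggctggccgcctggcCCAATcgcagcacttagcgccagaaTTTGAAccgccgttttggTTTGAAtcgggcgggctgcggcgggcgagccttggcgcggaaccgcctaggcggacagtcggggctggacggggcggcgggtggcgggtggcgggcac
Top2a: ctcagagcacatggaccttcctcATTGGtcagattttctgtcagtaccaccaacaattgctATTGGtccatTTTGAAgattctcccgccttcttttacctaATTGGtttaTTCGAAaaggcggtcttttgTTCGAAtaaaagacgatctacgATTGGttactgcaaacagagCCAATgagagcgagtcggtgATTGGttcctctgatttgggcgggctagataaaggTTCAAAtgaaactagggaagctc
Ccnb2: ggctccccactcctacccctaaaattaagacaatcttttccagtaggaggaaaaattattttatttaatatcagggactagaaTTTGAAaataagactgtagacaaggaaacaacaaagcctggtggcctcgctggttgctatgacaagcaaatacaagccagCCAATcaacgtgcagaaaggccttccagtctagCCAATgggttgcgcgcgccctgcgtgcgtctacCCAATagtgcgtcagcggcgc
Cdk1: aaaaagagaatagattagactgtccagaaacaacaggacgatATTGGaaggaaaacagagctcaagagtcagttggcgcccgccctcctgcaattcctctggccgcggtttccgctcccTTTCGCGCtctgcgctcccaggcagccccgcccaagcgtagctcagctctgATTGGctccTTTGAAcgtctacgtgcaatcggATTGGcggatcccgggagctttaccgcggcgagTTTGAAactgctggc
Mcm5: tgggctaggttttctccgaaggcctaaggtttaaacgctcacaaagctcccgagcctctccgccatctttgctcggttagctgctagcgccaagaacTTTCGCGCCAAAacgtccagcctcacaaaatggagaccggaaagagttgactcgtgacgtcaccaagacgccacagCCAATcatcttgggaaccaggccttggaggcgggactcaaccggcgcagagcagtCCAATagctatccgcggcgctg
Mcm2: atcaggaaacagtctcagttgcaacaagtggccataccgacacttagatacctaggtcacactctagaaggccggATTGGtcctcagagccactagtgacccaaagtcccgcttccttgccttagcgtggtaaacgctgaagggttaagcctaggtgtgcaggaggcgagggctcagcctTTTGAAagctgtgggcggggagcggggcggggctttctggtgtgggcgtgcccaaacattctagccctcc
Mki67, Top2a, Ccnb2 and Cdk1 hold both CHR and CCAAT letters, Cdk1 holds E2F letters too, Mcm5 holds CCAAT and E2F letters without a CHR match, and Mcm2 is 1 of only 2 matched G1/S members, with Mcm7, that hold a CHR match, and it holds CCAAT but no E2F letters.

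Promoters in RefSeq were matched for 34 of the 42 members, 16 of G1/S and 18 of G2/M, and motifs were counted in windows of 300 bases, from 250 before to 50 after the start. CHR letters were in 14 of the 18 G2/M promoters (77.8%), in 2 of the 16 G1/S promoters (12.5%) and in 21.7% of the 27025 genes with a RefSeq promoter. CCAAT letters were in 88.9% of G2/M, 56.2% of G1/S and 41.1% of all genes with a promoter. E2F letters were in 7 of the 16 G1/S promoters (43.8%), in 1 of the 18 G2/M promoters, that of Cdk1, and in 2.6% of all genes with a promoter. Over the 11221 of these genes that were tested, the shares were 16.9% for CHR, 42.7% for CCAAT and 4.45% for E2F letters. A gene was counted where any of its windows held the letters. These shares describe letters and show no binding. Ccnd1, Ccne2, Mcm4, Gins2, Ccna2, Aurkb, Kif20a and Tpx2 were not matched.

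Totals ran from 16478671 to 27433818 counts per library over 18468 to 22900 detected genes, with 0.699 to 3.15% of counts from mitochondrial genes. Ikbkb was at 44.5 to 120.8 CPM (counts set to a common library size with TMM factors) in its controls and at 28.5 to 46.3 CPM in the Ikbkb-deleted libraries. Irf1 was at 141 to 268 CPM in its controls and at 98.6 to 299 CPM in the libraries labelled Irf1-deleted, so the ranges overlap for both genes and the counts check neither label, since the deleted exons are not stated. All 10 cDC1 markers had counts in every library, with a summed level of 467 to 6117 CPM. The sum of 10 macrophage and monocyte genes was higher than the cDC1 sum in 15 of the 16 libraries, and so was that of 7 fibroblast genes. Of 10 melanocyte and melanoma genes, Mlana, Dct, Tyrp1 and Tyr were at 0 in 15 of the 16 libraries each. Mitf (1.43 to 16.4 CPM), Gpnmb (2.26 to 21.6 CPM) and Mcam (4.89 to 59.6 CPM) had counts in every library. Pmel and S100b were at 0 in 4 libraries each, and Sox10 in 7. Of 4 Y-linked genes, 3 (Ddx3y, Kdm5d and Uty) had counts in every library of these hosts labelled female.

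Every member was expressed in every library, and no library lacked either phase. Levels set per kilobase of the longest coding transcript were highest in the G1/S list for Cdk4, at 467 CPM per kilobase in the Ikbkb set and 328 in the Irf1 set, and lowest for Cdk6, at 3.44 CPM per kilobase in the Ikbkb set and 6.28 in the Irf1 set. Among G2/M members they were highest for Cenpa in the Ikbkb set (157 CPM per kilobase) and for Ccnb2 in the Irf1 set (105). The same 3 members, Cenpf, Cenpe and Mki67, were lowest of the G2/M list in both sets. Mki67 stood at 2.32 CPM per kilobase in the Ikbkb set and 9.87 in the Irf1 set. Mki67, Cenpe and Cenpf also varied most over the 16 libraries, with SDs of log2 CPM of 1.42, 1.07 and 1.04, while Cdk2 (0.28), Birc5 (0.29) and Nusap1 (0.29) varied least.

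**Figure D1:**
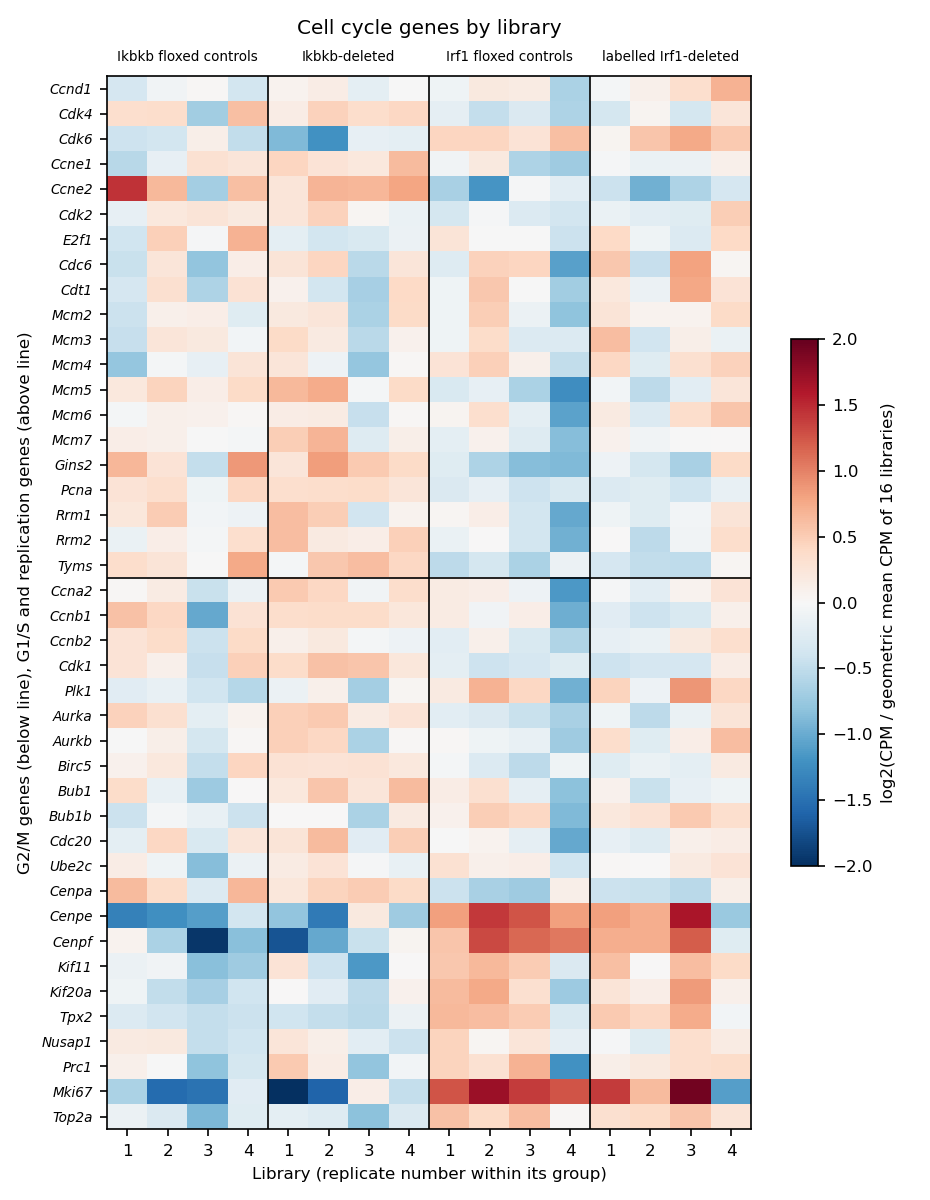
Each row is a cell cycle gene and each column a library, coloured by log2 of its CPM over the geometric mean of the 16 libraries (colours end at -2 and 2). Mki67, Cenpe and Cenpf are red in most Irf1 libraries and blue in most Ikbkb libraries, and Irf1 control 4 is the lowest of its set for 30 of the 42 genes.

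Single libraries moved many members together. In the Ikbkb set, Ikbkb control 3 was the lowest of the 8 libraries for 20 of the 42 members, 15 of them among the 22 of G2/M, with a median log2 deviation of -0.38 from the set's mean. Ikbkb-deleted library 3 was lowest for 12 more. In the Irf1 set, Irf1 control 4 was lowest for 30 of the 42 members, at a median deviation of -0.59, and library 4 labelled Irf1-deleted was highest for 19. The summed Y-linked level was lowest in Ikbkb control 3 within the Ikbkb set (53.6 CPM) and lowest in Irf1 control 4 within the Irf1 set (65.95 CPM), and it was highest of the Irf1 set in library 4 labelled Irf1-deleted (165.5 CPM). Of all 16 libraries it was highest in Ikbkb control 1 (170.5 CPM), whose members had a median deviation of 0.002. In Ikbkb-deleted library 3, lowest for 12 members, it stood at 90.5 CPM. Ikbkb control 3 also had the highest T and NK cell sum (1412 CPM) and the second highest cDC1 sum (6087 CPM) of the 16 libraries, and Irf1 control 4 the highest macrophage and monocyte sum (14130 CPM). The highest cDC1 sum was that of Ikbkb-deleted library 1 (6117 CPM). That library was highest of its set for 8 members and lowest for 2, at a median deviation of 0.15. The part of these cells in the members' levels was not tested.

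No cell cycle gene passed the test in either deletion comparison. With Ikbkb deleted, 0 of the 42 members were called by edgeR's quasi-likelihood test at an adjusted p under 0.05, where 0.0% of all genes were called, and 0 were at an unadjusted p under 0.05, against 4.79% of all genes (769). DESeq2 called 38 genes (0.237%) and limma voom 0, with 0 members in either. Estimates lay mostly on the higher side, 15 of 20 G1/S members at a median log2 fold change of 0.08 and 19 of 22 G2/M members at a median of 0.18, beside -0.02 over all genes tested. Leaving out 1 library moved the G1/S median from 0.01 to 0.14 and the G2/M median from 0.07 to 0.24, with both lowest without Ikbkb control 3. The median standard error (SE) of a member was 0.24 in either phase. No member's Ikbkb-deleted libraries lay wholly above or below the controls, as 1.7% of all genes did. The 95% intervals reached from -1.16 (Mki67) to 1.28 (Cenpe and Mki67) in G2/M and from -0.98 (E2f1) to 1.08 (Cdc6) in G1/S.

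In the libraries labelled Irf1-deleted, 0 of the 42 members were called, where again 0.0% of all genes were, and 0 were at an unadjusted p under 0.05, against 2.61% of all genes (419). DESeq2 called 6 genes (0.0374%) and limma voom 0, with 0 members in either. The G1/S estimates were positive for 19 of 20 members at a median log2 fold change of 0.26, and the G2/M estimates for 15 of 22 at a median of 0.06, beside -0.02 over all genes. With edgeR the 9 genes of origin licensing and the helicase were all on the higher side, at a median of 0.29. Without Irf1 control 4, the library lowest for 30 members, the test again called 0 members, and over the 8 libraries left out in turn the G1/S median ran from 0.12 to 0.38 and the G2/M median from -0.10, without Irf1 control 4, to 0.12. The G2/M median was also negative with limma voom (-0.05). With limma voom Mcm4 stood at -0.03, and the other genes of licensing and the helicase ranged from 0.10 (Mcm3) to 0.28 (Gins2). No member's groups were free of overlap, as those of 2.89% of all genes were. In both deletion comparisons 0 marker genes of other cells were called. For Ikbkb and Irf1 in turn, estimates were positive for 1 and 0 of 10 macrophage and monocyte genes and 2 and 0 of 7 fibroblast genes. They were positive for 0 and 1 of 11 T and NK genes and 0 and 3 of 4 B cell genes tested. Of 5 endothelial genes 1 and 3 were positive, and of 10 cDC1 genes 6 and 8. Summed T and NK levels were 203 to 1412 CPM in the Ikbkb controls, 162 to 439 in the Ikbkb-deleted libraries, 41.9 to 584 in the Irf1 controls and 45.8 to 182 in the libraries labelled Irf1-deleted. Their part in the members' estimates was not tested.

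The difference between both deletions, tested as an interaction, called 0 members, with 0.0% of all genes called. At an unadjusted p under 0.05 there were 0 members, against 2.84% of all genes (455), and DESeq2 called 12 genes (0.0748%) and limma voom 0, with 0 members in either. Its median log2 value was 0.12 over the G1/S members and -0.14 over the G2/M members, against 0.04 over all genes, with positive values where the Irf1 estimate was the higher one. Leaving out 1 library moved the G1/S median from 0.03, without Irf1 control 4, to 0.26, without Irf1 control 2, and the G2/M median from -0.24, without Irf1 control 4, to 0.01, without Ikbkb control 3. With limma voom the G1/S median was 0.02. The member with the smallest p was E2f1, at 0.65 ± 0.33 (SE), with an edgeR p of 0.0677 and an adjusted p of 1.0.

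**Figure D2:**
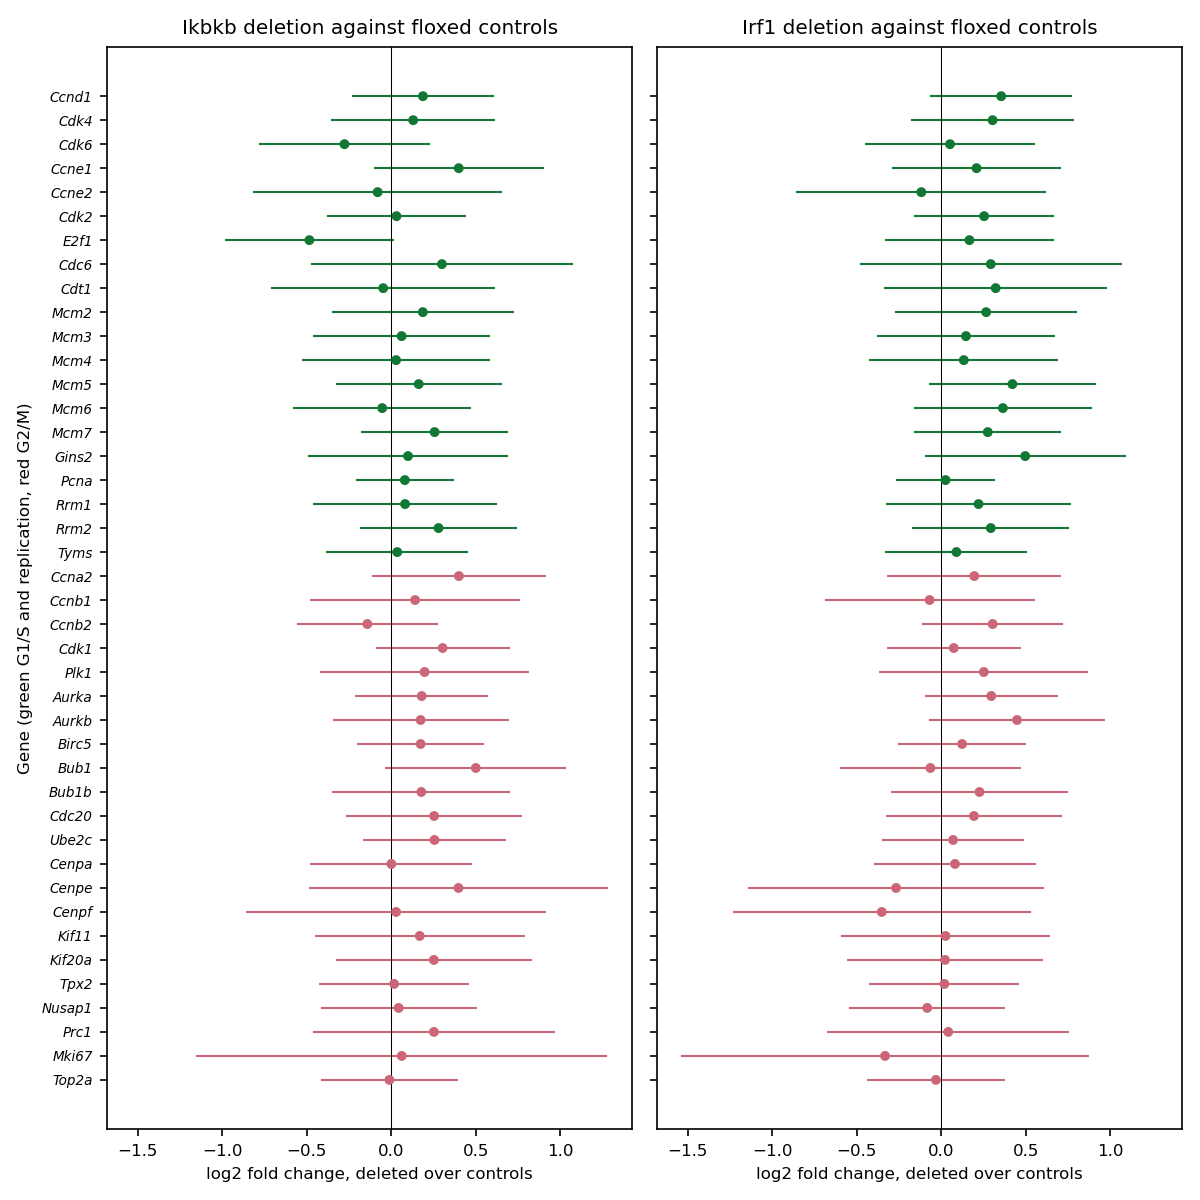
Points are log2 fold changes of each cell cycle gene with Ikbkb deleted (left) and in libraries labelled Irf1-deleted (right) against 4 control libraries, with 95% intervals from the edgeR fit as lines. Every interval crosses 0, and those of Mki67, Cenpe and Cenpf are the widest.

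All calls came from the comparison of both control groups. In the Irf1 controls 5 members, all of G2/M, were higher than in the Ikbkb controls, namely Mki67, Cenpe, Cenpf, Tpx2 and Top2a, and 6 were lower, of which Ccne2, Gins2, Mcm5, Tyms and Pcna act at G1/S or in replication and Cenpa in mitosis. These 11 calls are 26.2% of the members, where 12.6% of all genes (2018) were called, and by direction 11.9% of the members were higher against 6.74% of all genes and 14.3% lower against 5.84%. At an unadjusted p under 0.05 there were 17 members, against 28.3% of all genes. DESeq2 called 16 members, where 19.8% of all genes were called, and limma voom 18, where 25.7% were, and each of these lists held all 11. Leaving out 1 control library moved the count from 1 without Irf1 control 3, when Cenpe remained, to 15 without Ikbkb control 3, and the 8 control libraries alone gave 3, namely Cenpe, Cenpf and Mki67. The median log2 fold change was -0.29 over G1/S members, with 6 of 20 positive, and 0.24 over G2/M members, with 13 of 22 positive, beside -0.01 over all genes. Leaving out 1 control library moved the G1/S median from -0.44, without Irf1 control 2, to -0.16, without Irf1 control 4, and the G2/M median from 0.10, without Ikbkb control 3, to 0.35, without Irf1 control 4. No overlap between the control groups was seen for Mki67, Cenpe, Cenpf, Top2a and Cdk6 on the higher side, as for 10.3% of all genes, and for Mcm5, Pcna, Tyms and Aurka on the lower side, as for 7.16%, and for 17.5% in either direction. The floxed gene, the set of libraries and their handling cannot be told apart here, and the comparison shares its control libraries with both deletion comparisons. Of the marker lists, 6 of 7 fibroblast genes were called higher, with sums of 6001 to 6244 CPM in the Ikbkb controls and 8725 to 25360 in the Irf1 controls, and 2 of 5 endothelial genes were called higher, with sums of 9.78 to 57.4 and 56.8 to 88.7 CPM. All 11 T and NK genes had negative estimates with 0 called, at sums of 203 to 1412 and 41.9 to 584 CPM. Of the 10 cDC1 genes 8 were negative with 0 called, at sums of 589 to 6087 and 467 to 1785 CPM. The 4 B cell genes tested were all negative with 0 called, at sums of 14.6 to 50.6 and 1.55 to 8.65 CPM. Of 10 macrophage and monocyte genes 6 were negative with 0 called, at sums of 6956 to 9519 and 6583 to 14130 CPM. Of the 5 melanocyte and melanoma genes tested 4 had positive estimates and 1 was called higher. Sums over that list were 23.1 to 39.5 CPM in the Ikbkb controls and 66.9 to 83.1 CPM in the Irf1 controls. They came mostly from Mcam, Gpnmb and Mitf, which reached 59.6, 21.6 and 16.4 CPM over the 16 libraries. The highest of the other genes, Pmel, reached 3.45 CPM, and Mlana, Dct, Tyrp1 and Tyr were at 0 in 15 libraries each. The part of these cells in the members' differences was not tested.

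The calls also moved with transcript length. The 5 members called higher had longest coding transcripts of 4365 to 11130 bases (median 7910), and the 6 called lower of 1466 to 3900 bases (median 3084), beside a median of 2847 over the genes tested. Over 16037 genes the log2 fold change correlated with transcript length at a Spearman rho of 0.39, and over the 42 members at 0.56, across genes that share the same 8 libraries and are not independent replicates. The median over all genes went by bin from -0.50 up to 1000 bases to 0.92 above 8000 bases. The slope of log2 CPM deviation on log2 length was -0.275 to -0.066 per doubling in the Ikbkb set and -0.008 to 0.295 in the Irf1 set, so the sets did not overlap. With each library's length trend removed as an offset, a setting added after the data were seen, 4 members were called, where 7.35% of all genes (1179) were, namely Cenpe higher, as 2.26% of all genes, and Gins2, Mcm5 and Tyms lower, as 5.09%. The medians were then -0.34 over G1/S members, with 2 of 20 positive, and 0.09 over G2/M members, with 12 of 22 positive, beside -0.06 over all genes. With trends of length and GC content removed, the same 4 were called, where 6.36% of all genes (1020) were, 2.0% higher and 4.36% lower. Of all genes called, 1081 were higher and 937 lower before the length trend was removed, 363 and 816 after, and 321 and 699 with GC removed too. In the Irf1 deletion comparison Spearman's rho with length was -0.18 over all genes and -0.36 over the members. With GC content it was 0.16 and 0.67. With both trends removed, the medians of that comparison were 0.23 over G1/S members and 0.08 over G2/M members, and 0 members were called.

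**Figure D3:**
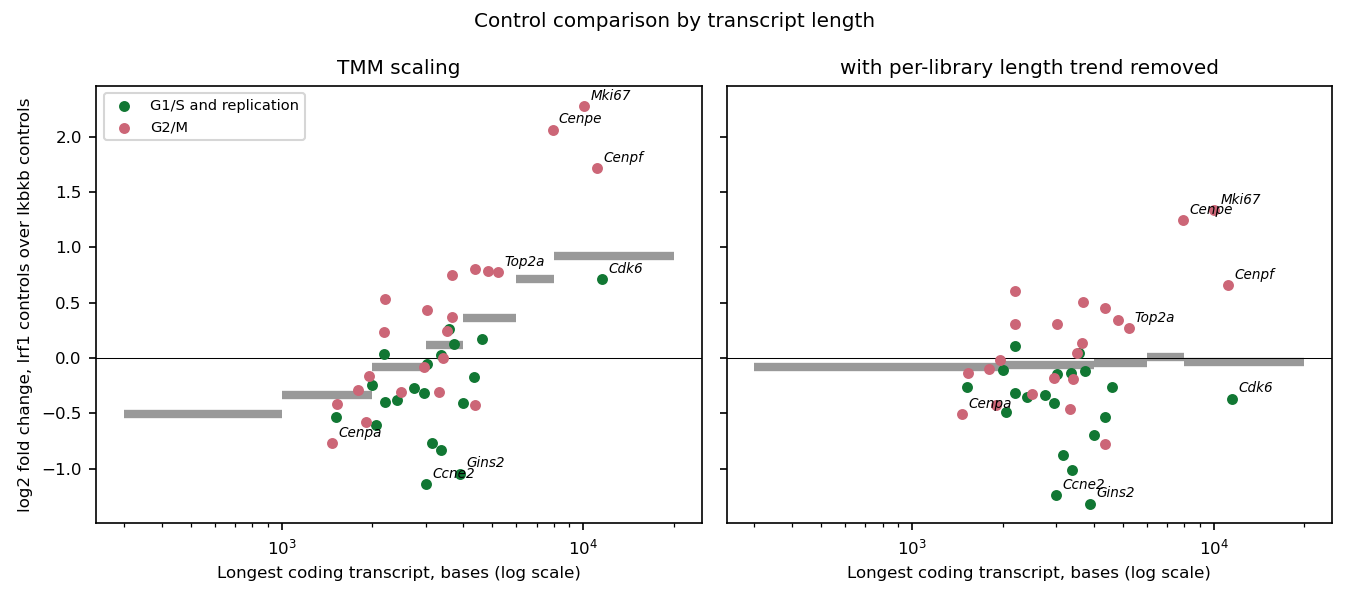
Points are the log2 fold changes of the 42 genes in the Irf1 controls over the Ikbkb controls against transcript length (log axis), with TMM scaling alone (left) and after removal of each library's length trend (right). Grey bars are medians of all genes by length bin, rising from -0.50 to 0.92 on the left, and Mki67 moves from 2.28 to 1.33.

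Of the G1 cyclins and their kinases, edgeR called Ccne2, in the control comparison, and DESeq2 and limma voom also called Cdk4 and Cdk6 there. Ccnd1 encodes cyclin D1, which links growth signals to the cycle. Ccnd1 was at 248, 298, 319 and 244 CPM in the Ikbkb controls and at 329.5, 346, 275 and 313 CPM in the Ikbkb-deleted libraries. Ccnd1 in the Irf1 set was at 294, 359, 353 and 201 CPM in the controls and at 304, 336, 397 and 506 CPM in the libraries labelled Irf1-deleted. Its groups overlapped in both sets, at log2 fold changes of 0.19 ± 0.20 (SE) for Ikbkb and 0.35 ± 0.20 for Irf1. Cdk4, a partner kinase of cyclin D, was the G1/S member with the highest level per length. Cdk4 was at 993, 999.6, 485 and 1187 CPM in the Ikbkb controls and at 875, 1077, 1006 and 1049 CPM in the Ikbkb-deleted libraries. Cdk4 in the Irf1 set was at 696, 562, 641 and 514 CPM in the controls and at 613, 818, 616 and 931 CPM in the libraries labelled Irf1-deleted. Ikbkb control 3 was the lowest of the 16 libraries, far from the other Ikbkb controls, and the control comparison gave -0.60 ± 0.23 with an edgeR adjusted p of 0.0956. Cdk4 was called by DESeq2 (adjusted p 0.0457), by limma voom (0.0117) and by edgeR without Ikbkb control 3. Cdk6 encodes the other cyclin D kinase, and its transcript of 11525 bases is the longest of the list. Cdk6 was at 39.1, 40.5, 56.97 and 37.2 CPM in the Ikbkb controls and at 28.4, 22.5, 46.6 and 45.9 CPM in the Ikbkb-deleted libraries. Cdk6 in the Irf1 set was at 70.9, 70.2, 63.6 and 79.8 CPM in the controls and at 54.5, 76.8, 88.2 and 75.3 CPM in the libraries labelled Irf1-deleted. All Irf1 controls lay above all Ikbkb controls, yet the difference of 0.71 ± 0.24 missed the threshold (edgeR adjusted p 0.0624) and had the other sign with the length trend removed (-0.37, adjusted p 0.395). Without Ikbkb control 3, where Cdk6 was high, it was called at 0.87 (edgeR adjusted p 0.034), and DESeq2 and limma voom called it with all libraries (adjusted p 0.0373 and 0.0155).

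Cyclin E1 and cyclin E2 activate Cdk2 at the start of S phase. Ccne1 was at 19.2, 25.1, 34.5 and 33.1 CPM in the Ikbkb controls and at 37.9, 33.9, 32.3 and 43.4 CPM in the Ikbkb-deleted libraries. Ccne1 in the Irf1 set was at 26.6, 32.1, 18.4 and 17.2 CPM in the controls and at 27.5, 25.4, 25.9 and 30.01 CPM in the libraries labelled Irf1-deleted. The lowest Ikbkb value was in control 1 and the highest in deleted library 4, and Ccne1 was the G1/S member with the smallest p on the higher side for Ikbkb (0.40 ± 0.24, edgeR p 0.112, adjusted p 1.0). Ccne2 was at 90.3, 51.9, 20.6 and 50.2 CPM in the Ikbkb controls and at 39.2, 52.7, 52.6 and 56.95 CPM in the Ikbkb-deleted libraries. Ccne2 in the Irf1 set was at 21.1, 14.6, 32.6 and 28.7 CPM in the controls and at 24.6, 17.02, 21.5 and 26.3 CPM in the libraries labelled Irf1-deleted. Ikbkb control 1 was high and control 3 low, within the range of the Irf1 controls. Ccne2 was lower in the Irf1 controls, at -1.14 ± 0.35 on the log2 scale, with an edgeR adjusted p of 0.0457. That call was kept in 1 of 8 fits without 1 control library (edgeR adjusted p 0.00942 to 0.151), the one without Ikbkb control 3, and was lost with the length trend removed (-1.24, adjusted p 0.0504). Cdk2 averaged 58.7 ± 7.41 CPM in the Ikbkb controls, 59.97 ± 10.6 in the Ikbkb-deleted libraries, 45.1 ± 5.14 in the Irf1 controls and 53.7 ± 14.2 in the libraries labelled Irf1-deleted.

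E2f1, the transcription factor freed from the retinoblastoma protein, had the smallest unadjusted p of any member in the Ikbkb comparison. E2f1 was at 59.2, 109, 76.7 and 127 CPM in the Ikbkb controls and at 68.8, 60.7, 63.5 and 72.3 CPM in the Ikbkb-deleted libraries. E2f1 in the Irf1 set was at 94.1, 77.8, 77.9 and 57.9 CPM in the controls and at 103, 74.2, 64.5 and 103 CPM in the libraries labelled Irf1-deleted. Ikbkb controls 2 and 4 were high, control 1 was lowest of the 8, and the estimate of -0.49 ± 0.23 was not called (edgeR p 0.056, adjusted p 1.0). In the Irf1 set it stood at 0.17 ± 0.23, with overlapping groups.

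Of the 9 genes that load and form the replicative helicase, Mcm5 and Gins2 were called lower in the Irf1 controls than in the Ikbkb controls, and 7 were not called in any comparison. Mcm5 is a subunit of the MCM ring that unwinds DNA. Mcm5 was at 316, 375, 302 and 357 CPM in the Ikbkb controls and at 429, 459, 266 and 356 CPM in the Ikbkb-deleted libraries. Mcm5 in the Irf1 set was at 221, 244, 178 and 116 CPM in the controls and at 263, 190.2, 237 and 325 CPM in the libraries labelled Irf1-deleted. All Irf1 controls lay under all Ikbkb controls, with Irf1 control 4 the lowest of the 16 libraries. The difference was -0.83 ± 0.23 (edgeR adjusted p 0.0312), and -1.01 with the length trend removed (adjusted p 0.0157). The call of Mcm5 held in 3 of 8 fits without 1 control library (edgeR adjusted p 0.0335 to 0.0876). In the Irf1 deletion comparison Mcm5 had the smallest p of the G1/S members on the higher side, at 0.42 ± 0.23 with a p of 0.0886 and an edgeR adjusted p of 1.0. Gins2 is a subunit of the GINS complex that joins MCM and Cdc45 in the active helicase. Gins2 was at 80.98, 61.7, 36.9 and 93.4 CPM in the Ikbkb controls and at 60.6, 91.4, 73.5 and 66.8 CPM in the Ikbkb-deleted libraries. Gins2 in the Irf1 set was at 43.2, 33.2, 28.2 and 27.8 CPM in the controls and at 47.7, 39.9, 32.6 and 66.4 CPM in the libraries labelled Irf1-deleted. Ikbkb control 3 overlapped the Irf1 controls. The difference of the control groups was -1.05 ± 0.28 (edgeR adjusted p 0.0269) and -1.31 with the length trend removed (adjusted p 0.0216), and it was called in 3 of 8 fits without 1 control library (edgeR adjusted p 0.00941 to 0.0846). Of the exonic bases of Gins2, 67.3% lie over Gse1 on the opposite strand, and with the strand setting not given in the sources used here, reads of both genes cannot be told apart.

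Mcm2 and Cdc6 gave no call. Mcm2 is another subunit of the ring. Mcm2 was at 108, 158, 160.1 and 124 CPM in the Ikbkb controls and at 169, 173, 94.3 and 190.0 CPM in the Ikbkb-deleted libraries. Mcm2 in the Irf1 set was at 138, 205, 135 and 83.4 CPM in the controls and at 176, 154, 153 and 191 CPM in the libraries labelled Irf1-deleted. Ikbkb-deleted library 3 and Irf1 control 4 were the low libraries of their sets. Cdc6 loads the ring on origins together with Cdt1. Cdc6 was at 19.4, 31.3, 15.2 and 28.8 CPM in the Ikbkb controls and at 31.5, 35.6, 18.2 and 31.1 CPM in the Ikbkb-deleted libraries. Cdc6 in the Irf1 set was at 22.03, 36.4, 35.5 and 12.5 CPM in the controls and at 38.3, 19.1, 45.9 and 26.98 CPM in the libraries labelled Irf1-deleted. The groups overlapped in both sets, at 0.30 ± 0.37 for Ikbkb and 0.29 ± 0.36 for Irf1. Cdt1 averaged 31.97 ± 9.93 CPM in the Ikbkb controls, 30.9 ± 9.94 in the Ikbkb-deleted libraries, 32.7 ± 11.3 in the Irf1 controls and 40.9 ± 10.9 in the libraries labelled Irf1-deleted. Mcm3, Mcm4, Mcm6 and Mcm7, the other subunits of the ring, ranged from -0.05 to 0.26 for Ikbkb, from 0.13 to 0.36 for Irf1 and from -0.32 to 0.26 between the controls. Mcm5 was thus the only MCM subunit called, in the control comparison, and whether it differs from the other subunits was not tested.

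The fork clamp and the enzymes of nucleotide supply were all lower in estimate in the Irf1 controls than in the Ikbkb controls, and Pcna and Tyms were called. Pcna forms the sliding clamp of DNA polymerases. Pcna was at 92.1, 95.7, 71.3 and 102 CPM in the Ikbkb controls and at 96.1, 97.3, 98.1 and 89.6 CPM in the Ikbkb-deleted libraries. Pcna in the Irf1 set was at 62.3, 68.2, 57.1 and 61.8 CPM in the controls and at 62.9, 64.2, 57.9 and 68.6 CPM in the libraries labelled Irf1-deleted. Within each set the libraries were close together apart from Ikbkb control 3, and all 8 Ikbkb libraries lay above all 8 of the Irf1 set. The control comparison gave -0.53 ± 0.14 (edgeR adjusted p 0.0226), and -0.26 with the length trend removed, which was not called (adjusted p 0.219). Pcna was called in 4 of 8 fits without 1 control library (edgeR adjusted p 0.00969 to 0.075). The deletion estimates were 0.08 ± 0.14 for Ikbkb and 0.02 ± 0.14 for Irf1, with 95% intervals of -0.21 to 0.37 for Ikbkb and -0.27 to 0.32 for Irf1, the narrowest of the list. Tyms, thymidylate synthase, makes the thymidine nucleotide of DNA. Tyms was at 179, 168, 140.0 and 238 CPM in the Ikbkb controls and at 136, 203, 215 and 188 CPM in the Ikbkb-deleted libraries. Tyms in the Irf1 set was at 97.6, 109.5, 90.2 and 129 CPM in the controls and at 111, 99.9, 98.95 and 144 CPM in the libraries labelled Irf1-deleted. The Irf1 controls all lay under the Ikbkb controls, at -0.76 ± 0.20 (edgeR adjusted p 0.0233) and at -0.88 with the length trend removed (adjusted p 0.0338), and the call held in 4 of 8 fits without 1 control library (edgeR adjusted p 0.0151 to 0.0776). Rrm2 is the regulated subunit of ribonucleotide reductase. Rrm2 was at 134, 162, 143 and 186 CPM in the Ikbkb controls and at 225, 166, 162 and 205 CPM in the Ikbkb-deleted libraries. Rrm2 in the Irf1 set was at 135, 148, 115 and 75.8 CPM in the controls and at 149, 103, 141 and 188 CPM in the libraries labelled Irf1-deleted. Irf1 control 4 was again the lowest library, and no comparison was called. Rrm1 averaged 353 ± 71.3 CPM in the Ikbkb controls, 373 ± 109.8 in the Ikbkb-deleted libraries, 266 ± 86.3 in the Irf1 controls and 309.7 ± 45.9 in the libraries labelled Irf1-deleted.

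Of the mitotic cyclins and the kinases of mitotic entry, edgeR called 0 in each of the 4 comparisons, while in the control comparison DESeq2 called Aurka and limma voom Aurka, Cdk1 and Ccnb2. Cdk1 is the kinase that drives mitosis, and its promoter above holds CHR, CCAAT and E2F letters. Cdk1 was at 392, 348, 235 and 452 CPM in the Ikbkb controls and at 418, 485, 479 and 379 CPM in the Ikbkb-deleted libraries. Cdk1 in the Irf1 set was at 284, 245, 258 and 275 CPM in the controls and at 244, 257, 256 and 359.6 CPM in the libraries labelled Irf1-deleted. Ikbkb control 3 was low among the Ikbkb libraries, and library 4 labelled Irf1-deleted was high in a set whose other 7 libraries lay between 244 and 284 CPM. Estimates were 0.30 ± 0.19 for Ikbkb, 0.07 ± 0.19 for Irf1 and -0.43 ± 0.19 between the controls (edgeR adjusted p 0.145 for the last, limma voom 0.0174). Ccnb1 and Ccnb2 encode the B cyclins that activate Cdk1. Ccnb1 was at 110.2, 98.1, 36.2 and 89.3 CPM in the Ikbkb controls and at 93.1, 94.3, 94.9 and 85.8 CPM in the Ikbkb-deleted libraries. Ccnb1 in the Irf1 set was at 81.8, 69.7, 80.3 and 37.2 CPM in the controls and at 62.7, 55.3, 59.5 and 78.95 CPM in the libraries labelled Irf1-deleted. Control 3 of the Ikbkb set and control 4 of the Irf1 set had the lowest values of Ccnb1. Ccnb2 was at 203, 217, 125 and 219.5 CPM in the Ikbkb controls and at 180.2, 193, 163 and 157 CPM in the Ikbkb-deleted libraries. Ccnb2 in the Irf1 set was at 146, 180.3, 137 and 111 CPM in the controls and at 149.9, 154, 193 and 211 CPM in the libraries labelled Irf1-deleted. These were the same low libraries, and Ccnb2 was the G2/M member with the smallest p on the lower side for Ikbkb, at -0.14 ± 0.20 (edgeR p 0.479, adjusted p 1.0). Plk1 encodes the polo-like kinase of centrosomes and spindle. Plk1 was at 90.3, 95.1, 79.6 and 71.2 CPM in the Ikbkb controls and at 97.7, 113, 66.1 and 109 CPM in the Ikbkb-deleted libraries. Plk1 in the Irf1 set was at 120.0, 170.3, 141 and 53.9 CPM in the controls and at 144, 98.7, 194 and 141 CPM in the libraries labelled Irf1-deleted. Irf1 control 4 lay under every Ikbkb library, while the other 7 Irf1 libraries lay above every Ikbkb control, and the control comparison gave 0.53 ± 0.29 (edgeR adjusted p 0.252). Without Irf1 control 4, Plk1 was called in that comparison at 0.78 (edgeR adjusted p 0.0374). Aurka averaged 137 ± 26.5 CPM in the Ikbkb controls, 155 ± 17.8 in the Ikbkb-deleted libraries, 91.8 ± 12.1 in the Irf1 controls and 113 ± 24.7 in the libraries labelled Irf1-deleted. Aurora A, a centrosome kinase, was lower in every Irf1 control than in every Ikbkb control, at -0.58 ± 0.19, and missed the threshold with edgeR (adjusted p 0.0529). Aurka was called by DESeq2 (adjusted p 0.0132), by limma voom (0.0142), and by edgeR with RLE size factors or the stricter filter. Without Ikbkb control 3, edgeR called Aurka, Cdk1 and Ccnb2 in that comparison. Ccna2, cyclin A2, ran from 108 to 347 CPM over the 16 libraries, with Irf1 control 4 lowest.

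The chromosomal passengers Aurkb and Birc5, which correct chromosome attachment, were not called. Aurkb was at 109, 119, 85.9 and 111 CPM in the Ikbkb controls and at 152, 145, 70.2 and 111 CPM in the Ikbkb-deleted libraries. Aurkb in the Irf1 set was at 112, 103, 98.3 and 66.4 CPM in the controls and at 139.5, 92.2, 119 and 167 CPM in the libraries labelled Irf1-deleted. Aurkb had the smallest p of the G2/M members on the higher side in the Irf1 comparison (0.45 ± 0.25, edgeR p 0.0874, adjusted p 1.0), with library 2 labelled Irf1-deleted within the range of the controls. Birc5 encodes survivin. Birc5 was at 180.4, 195, 122 and 227 CPM in the Ikbkb controls and at 207, 205, 207 and 196 CPM in the Ikbkb-deleted libraries. Birc5 in the Irf1 set was at 166, 141, 118 and 159 CPM in the controls and at 143, 154, 147 and 192 CPM in the libraries labelled Irf1-deleted. Apart from the low Ikbkb control 3, the Ikbkb set stayed between 180 and 227 CPM, and the estimates were 0.17 ± 0.18 for Ikbkb and 0.12 ± 0.18 for Irf1.

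Of the spindle checkpoint genes, Bub1, a checkpoint kinase, came closest to a call on the higher side in the Ikbkb comparison. Bub1 was at 91.2, 64.4, 42.7 and 71.3 CPM in the Ikbkb controls and at 82.6, 104, 83.9 and 110.3 CPM in the Ikbkb-deleted libraries. Bub1 in the Irf1 set was at 79.04, 88.3, 62.5 and 40.2 CPM in the controls and at 75.8, 52.1, 63.4 and 66.9 CPM in the libraries labelled Irf1-deleted. Ikbkb control 1 lay within the range of the deleted libraries and control 3 was lowest, and the estimate was 0.50 ± 0.25 (edgeR p 0.0653, adjusted p 1.0). In the Irf1 set it was -0.07 ± 0.25, and the difference between both deletions of -0.56 ± 0.36 had an edgeR p of 0.133 and an adjusted p of 1.0. Cdc20 averaged 185 ± 43.7 CPM in the Ikbkb controls, 221 ± 53.2 in the Ikbkb-deleted libraries, 151 ± 44.7 in the Irf1 controls and 173 ± 23.6 in the libraries labelled Irf1-deleted. Ube2c averaged 175 ± 46.6 CPM in the Ikbkb controls, 209 ± 26.5 in the Ikbkb-deleted libraries, 207 ± 39.5 in the Irf1 controls and 217 ± 19.8 in the libraries labelled Irf1-deleted. Cdc20 activates the anaphase-promoting complex and Ube2c is its ubiquitin-conjugating enzyme. Bub1b, a checkpoint protein, ran from 70.3 to 185.7 CPM over the 16 libraries, with Irf1 control 4 lowest, and edgeR did not call it with all libraries but did in the control comparison without that one.

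The centromere and kinetochore genes divided, with Cenpa lower and Cenpe and Cenpf higher in the Irf1 controls than in the Ikbkb controls, and their transcripts are of 1466, 7910 and 11130 bases. Cenpa is the histone H3 variant of centromeres, and its transcript is the shortest of the 42. Cenpa was at 270.2, 227, 146 and 277 CPM in the Ikbkb controls and at 205, 238, 248 and 228 CPM in the Ikbkb-deleted libraries. Cenpa in the Irf1 set was at 131, 112, 107 and 189.7 CPM in the controls and at 131, 129, 120.4 and 190.3 CPM in the libraries labelled Irf1-deleted. Ikbkb control 3 fell within the range of the Irf1 controls, of which control 4 was high. The difference was -0.77 ± 0.23 (edgeR adjusted p 0.0377), and -0.50 with the length trend removed (adjusted p 0.111), and the call held in 2 of 8 fits without 1 control library (edgeR adjusted p 0.0114 to 0.118). Cenpe is a kinesin that holds kinetochores to microtubules. Cenpe was at 11.1, 12.1, 13.1 and 21.8 CPM in the Ikbkb controls and at 16.4, 10.6, 32.2 and 17.2 CPM in the Ikbkb-deleted libraries. Cenpe in the Irf1 set was at 50.0, 75.3, 67.2 and 49.98 CPM in the controls and at 50.1, 46.7, 87.8 and 16.8 CPM in the libraries labelled Irf1-deleted. All Irf1 controls were above all Ikbkb libraries, while library 4 labelled Irf1-deleted lay among the Ikbkb libraries. The log2 fold change of the controls was 2.06 ± 0.43 (edgeR adjusted p 0.00938). Cenpe was called in 8 of 8 fits without 1 control library (edgeR adjusted p 0.0101 to 0.0336) and after removal of the length trend, there at 1.25 (adjusted p 0.0418). Cenpf is a large protein of the outer kinetochore. Cenpf was at 32.8, 20.2, 8.09 and 17.6 CPM in the Ikbkb controls and at 9.46, 15.4, 22.9 and 32.5 CPM in the Ikbkb-deleted libraries. Cenpf in the Irf1 set was at 45.8, 78.01, 69.8 and 65.01 CPM in the controls and at 51.6, 51.8, 72.6 and 26.5 CPM in the libraries labelled Irf1-deleted. Ikbkb control 3 was the lowest of the 16 libraries. The controls differed by 1.72 ± 0.43 (edgeR adjusted p 0.0198), and by 0.66 with the length trend removed, which was not called (adjusted p 0.284). Cenpf was called in 6 of 8 fits without 1 control library (edgeR adjusted p 0.021 to 0.0565).

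All 5 motors and organisers of the spindle had positive estimates in the Irf1 controls, and Tpx2 was called. Tpx2 activates aurora A on spindle microtubules. Tpx2 was at 80.6, 74.3, 70.1 and 71.9 CPM in the Ikbkb controls and at 73.6, 69.7, 66.9 and 89.99 CPM in the Ikbkb-deleted libraries. Tpx2 in the Irf1 set was at 153, 149.7, 138 and 78.8 CPM in the controls and at 139.9, 129, 163 and 93.6 CPM in the libraries labelled Irf1-deleted. Irf1 control 4 lay within the range of the Ikbkb controls, and the other Irf1 controls lay above it. The difference was 0.81 ± 0.21 (edgeR adjusted p 0.0234), and 0.45 with the length trend removed (adjusted p 0.126), and the call held in 3 of 8 fits without 1 control library (edgeR adjusted p 0.00573 to 0.0723). Kif11 and Kif20a, both kinesins, stood at 0.79 ± 0.29 and 0.75 ± 0.27 and were not called by edgeR in the control comparison (adjusted p 0.091 and 0.0856). DESeq2 and limma voom called both there, and so did edgeR without Irf1 control 4. Nusap1 and Prc1, which bundle microtubules, stood at 0.24 ± 0.22 and 0.44 ± 0.34. Nusap1 averaged 63.5 ± 15.8 CPM in the Ikbkb controls, 65.4 ± 13.7 in the Ikbkb-deleted libraries, 75.2 ± 13.95 in the Irf1 controls and 70.96 ± 11.95 in the libraries labelled Irf1-deleted. For both deletions the 5 genes lay between -0.08 and 0.25.

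Mki67 and Top2a, which coat and disentangle mitotic chromosomes, were both higher in the Irf1 controls. Mki67 encodes the proliferation antigen Ki-67. Mki67 was at 26.7, 14.3, 14.9 and 35.6 CPM in the Ikbkb controls and at 6.51, 13.7, 45.4 and 29.7 CPM in the Ikbkb-deleted libraries. Mki67 in the Irf1 set was at 98.6, 136, 109 and 99.4 CPM in the controls and at 109, 64.6, 159 and 19.3 CPM in the libraries labelled Irf1-deleted. The Irf1 controls lay between 98.6 and 136.1 CPM, above every Ikbkb library, whereas library 4 labelled Irf1-deleted fell among the Ikbkb libraries. The difference between the controls was the largest of the 42, at 2.28 ± 0.60 on the log2 scale where edgeR gave an adjusted p of 0.0238 and a 95% interval from 1.01 to 3.55. Mki67 was called in 3 of 8 fits without 1 control library (edgeR adjusted p 0.0285 to 0.0729), and not with the length trend removed (1.33, adjusted p 0.108). Its deletion estimates had the widest intervals of the list, -1.16 to 1.28 for Ikbkb and -1.54 to 0.87 for Irf1. Top2a is the topoisomerase that separates sister DNA. Top2a was at 177, 159, 103 and 163 CPM in the Ikbkb controls and at 169, 161, 109.7 and 158 CPM in the Ikbkb-deleted libraries. Top2a in the Irf1 set was at 288, 252, 295 and 195 CPM in the controls and at 242, 252, 284 and 230.1 CPM in the libraries labelled Irf1-deleted. Every library of the Irf1 set lay above every library of the Ikbkb set. The controls differed by 0.78 ± 0.19 (edgeR adjusted p 0.0192), a call kept in 6 of 8 fits without 1 control library (edgeR adjusted p 0.0097 to 0.0637) and lost with the length trend removed (0.27, adjusted p 0.399). Mki67, Top2a and Cenpf hold CHR and CCAAT letters in their promoters, and so does Cenpa, which was called the other way. Of the other members called higher, Cenpe holds CCAAT but no CHR letters, and Tpx2 was not matched.

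**Figure D4:**
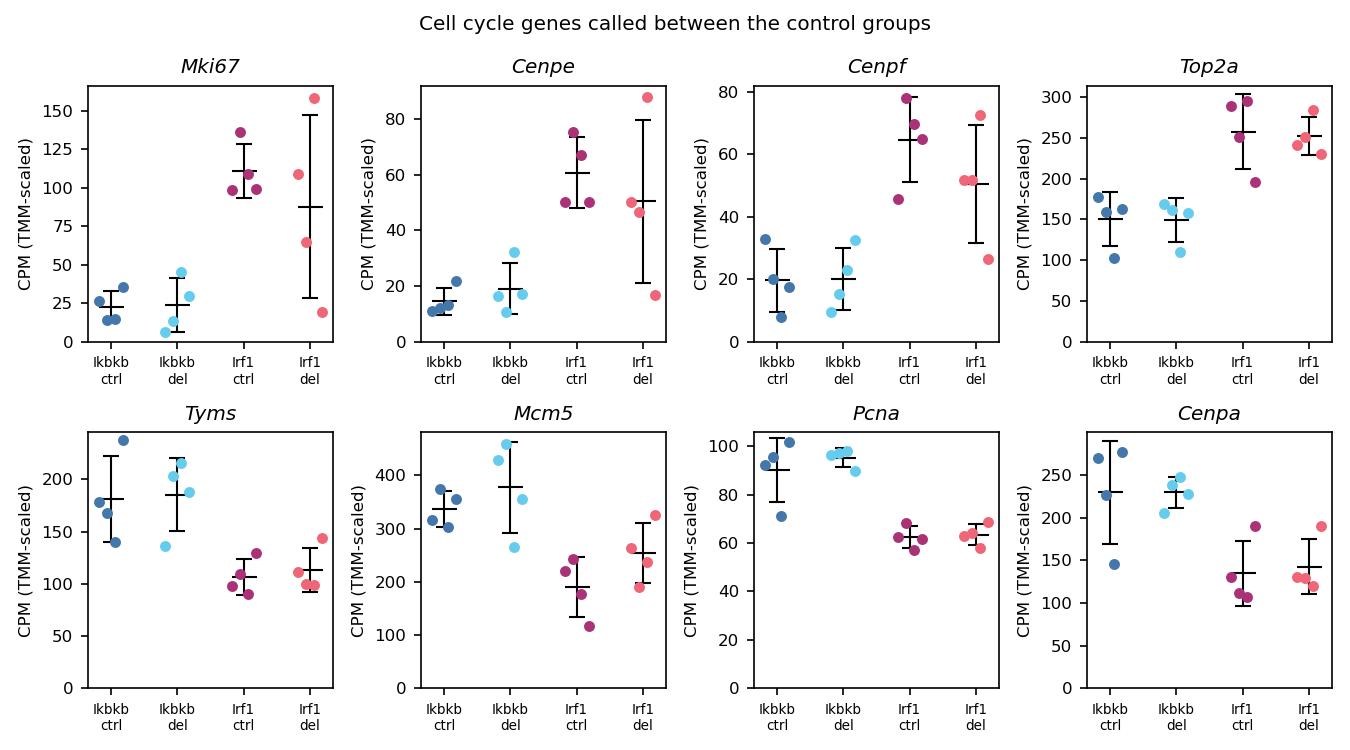
Points are single libraries in CPM for 8 of the 11 genes called between the control groups, with the mean and SD of each group of 4 in black and axes that start at 0. The Irf1 controls lie above the Ikbkb controls for Mki67, Cenpe, Cenpf and Top2a and below them for Tyms, Mcm5 and Pcna, while the groups overlap for Cenpa.

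Within a set, the length slope of a library moved with some of these genes. For the 11 called members and both sets, 22 relations of log2 CPM with the slope were computed over 8 libraries each. The slope is itself the trend of other genes' levels with length, so long transcripts tend to rise with it and short ones to fall. The 11 were also picked by calls that moved with length, and no share of genes of like length is given here. The p-values below therefore set no member apart from genes of its length. In the Irf1 set Mki67 was higher at higher slopes, with Pearson's r = 0.776 (exact permutation p 0.00876, adjusted 0.0408) and Spearman's rho = 0.714 (exact permutation p 0.0576, adjusted 0.211), and without the 2 libraries farthest from the median slope r was 0.748 (exact permutation p 0.0917). Cenpa was lower at higher slopes, with r = -0.895 (exact permutation p 0.00139, adjusted 0.0306) and rho = -0.881 (exact permutation p 0.00724, adjusted 0.0797), and at r = -0.726 (exact permutation p 0.114) without those 2. With 6 libraries neither relation was past 0.05, and r changed little for Mki67. Cenpe, Tpx2 and Tyms were the other members past an adjusted 0.05 by Pearson's r in that set, and by rho 0 of the 22 relations passed. In the Ikbkb set the same relations gave r = -0.226 for Mki67 (exact permutation p 0.591) and r = -0.411 for Cenpa (exact permutation p 0.327). The libraries of a set mix controls and deleted samples, so genotype and slope were not separated here.

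**Figure D5:**
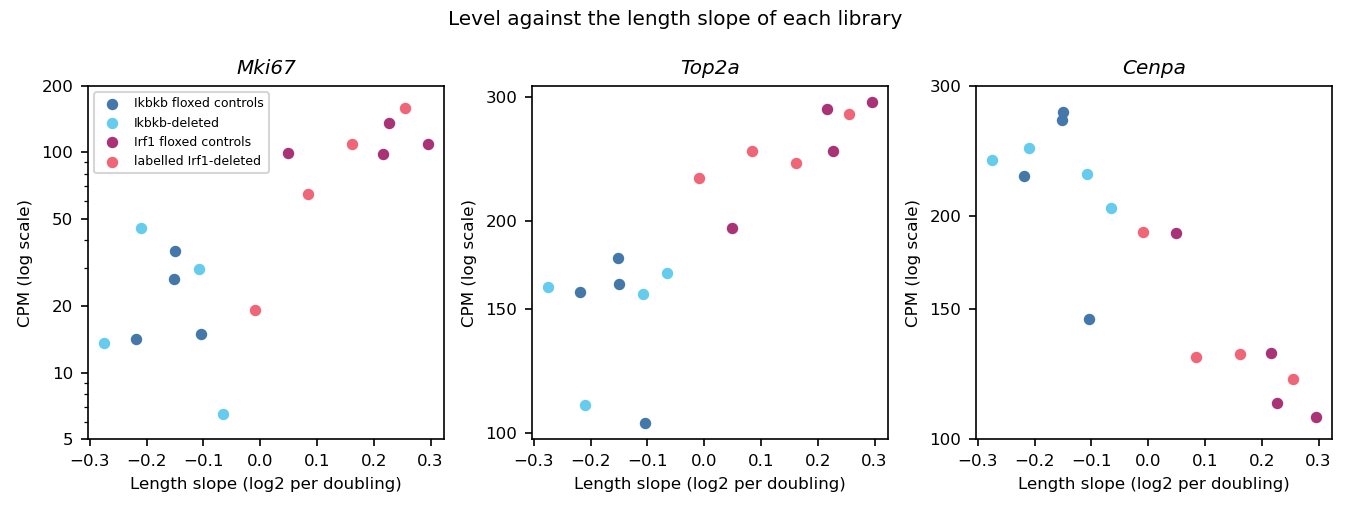
Each point is a library, with its length slope (log2 CPM deviation per doubling of transcript length) on the x axis and CPM of Mki67, Top2a and Cenpa on log y axes. The Ikbkb libraries lie at slopes of -0.275 to -0.066 and the Irf1 libraries at -0.008 to 0.295.

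Among 52 other cell cycle genes, chosen with the list above in view, the deletions called 0, where 0.0% of all genes were called, and the control comparison called 5, where 12.6% of all genes were called. In the Irf1 controls E2f8, a repressive E2F factor, was higher by 1.09 ± 0.32, the kinesin gene Kif23 by 0.87 ± 0.26, the checkpoint kinase gene Ttk by 1.25 ± 0.38 and Fzr1, which encodes the Cdh1 activator of the anaphase-promoting complex, by 0.56 ± 0.18, with edgeR adjusted p of 0.0401, 0.0396, 0.0442 and 0.0474. Gins4, a partner of Gins2 in its complex, was lower at -0.63 ± 0.19 (edgeR adjusted p 0.0437). None of these 5 was called with the length trend removed, at adjusted p of 0.0821 to 0.195. The retinoblastoma-like gene Rbl1 went the other way in that respect, at -0.58 ± 0.20 (edgeR adjusted p 0.0628) before and -1.03 after the trend was removed (adjusted p 0.00457). Foxm1, a factor of the G2/M program, stood at 0.76 ± 0.39 between the controls (edgeR adjusted p 0.214) and at -0.19 ± 0.39 and 0.00 ± 0.38 for the deletions.

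Of these 52 genes, 4 were at an unadjusted edgeR p under 0.05 for Ikbkb, against 4.79% of all genes, and 0 for Irf1, against 2.61%. The E2F factor gene E2f3 had the smallest p of the other cell cycle genes in the Ikbkb comparison. E2f3 was at 1.86, 3.96, 10.1 and 6.79 CPM in the Ikbkb controls and at 12.03, 12.7, 16.2 and 16.5 CPM in the Ikbkb-deleted libraries. All deleted libraries lay above all controls, where groups did not overlap in either direction for 1.7% of all genes. The estimate of 1.34 ± 0.43 was not called (edgeR p 0.00686, adjusted p 0.973). In the Ikbkb-deleted libraries Cdc45 and Melk also lay above all controls. Cdc45 was at 89.0 to 101.1 against 56.84 to 78.21 CPM, and the lowest Melk value was 74.72 against 74.71 CPM. The difference between the deletions for E2f3 was -1.45 ± 0.60 (edgeR p 0.0282, adjusted p 1.0). The passenger gene Cdca8 stood at 0.52 ± 0.21 for Ikbkb (edgeR p 0.028, adjusted p 0.988), and the kinase inhibitor genes Cdkn2b and Cdkn1b at -1.34 ± 0.65 and -0.44 ± 0.30. Cdkn1b, which encodes p27, was lower in every library labelled Irf1-deleted than in every Irf1 control, at -0.55 ± 0.30 (edgeR p 0.0838, adjusted p 1.0). Groups did not overlap in that comparison, in either direction, for 2.89% of all genes. Cdkn1b in the Irf1 set was at 29.9, 24.1, 24.2 and 29.6 CPM in the controls and at 17.5, 23.1, 15.2 and 17.8 CPM in the libraries labelled Irf1-deleted. Lin54, a DREAM subunit, stood at -0.44 ± 0.25 and Cdc25c, a phosphatase that activates Cdk1, at 0.46 ± 0.29 in that comparison. Cdkn1a, which encodes p21, stood at -0.26 ± 0.32 for Ikbkb and -0.22 ± 0.32 for Irf1. Cdkn2a, which encodes p16 and ARF and is deleted in the YUMM1.7 line, was at 0.368 to 6.42 CPM over the 16 libraries, with library 4 labelled Irf1-deleted highest.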

How the data were processed

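Each library was summarised by the authors as raw, unnormalized counts per Ensembl gene, deposited as 1 table of 16 columns. Per the labels' protocols, 1000 pg of RNA went into SMART-Seq v4 cDNA (12 PCR cycles) and then Nextera XT libraries (12 more cycles). The submitters' processing notes list STAR 2.5.3a, HTSeq 0.6.1p1, cutadapt 1.10 and bcl2fastq 2.17.1.14, with build mm10. Which annotation release and which strand option HTSeq used is not given in the sources used here. Of 32697 genes, 32684 had a symbol in GENCODE M21 and 13 had none.

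The count test was edgeR 4.0.16 in R 4.3.3. Genes passed filterByExpr (minimum count 10, minimum total 15), TMM set the library sizes, and all 16 libraries were fitted together by quasi-likelihood, 1 mean for each group. Calls needed an adjusted p (Benjamini-Hochberg, 16040 genes) under 0.05. Values after ± are SD over 4 libraries for CPM and SE for log2 fold changes, and 95% intervals come from the fit. Correlations with the slope used log2 CPM with a prior count of 2 and two-sided exact permutation tests, adjusted by Benjamini-Hochberg. Libraries are given in order of their replicate number, which follows the order of the record and pairs nothing. The libraries had no molecular identifiers, so PCR copies count as reads.

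Other settings were RLE size factors, no filter, a stricter filter (at least 5 CPM in at least 4 libraries), DESeq2 1.42.0, voom with quality weights in limma 3.58.1, only the 8 libraries of a comparison, and leaving out each library. Offsets from a lowess trend (span 0.3) on transcript length, and on length and GC, were chosen after seeing the data. Transcript length is that of the longest protein-coding transcript in GENCODE M21. Exons of 15 members overlap other genes, over 20% of exonic bases in Ccnd1, Gins2, Ube2c and Kif20a. The pipeline was tested on simulated data. Given in every library were 15 genes fixed by role, every called member, and in each comparison and phase the member with the smallest p on each side. Printed promoters are those of such members with CHR and CCAAT letters, or E2F letters, and at most 30 bases in annotated exons. The members and lists were chosen with earlier results of these data known.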

Additional observations from a re-analysis of the deposited data

Results flagged for a closer look

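In 3 of the 104 groups of 4 libraries examined for the named members, 1 library stood apart from the other 3, where chance gives about 1 in 20 groups. Cdk1 was at 360 CPM in library 4 labelled Irf1-deleted, against 244 to 257 CPM in the other 3. Cenpa was at 190 CPM in the same library, against 120 to 131 CPM. Cdk6 was at 57.0 CPM in Ikbkb control 3, against 37.2 to 40.5 CPM in the other Ikbkb controls.

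Genes of the Y chromosome had counts in libraries from hosts labelled female. The report sets this signal beside the ranks of single libraries, and no comparison of groups rests on it. The summed level of the 4 genes ran from 53.6 CPM in Ikbkb control 3 to 171 CPM in Ikbkb control 1. Its source was not tested.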

How the results depend on the processing

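No paired analysis was possible because the replicate numbers follow the order of the record and the columns carry no shared number. With DESeq2 the deletions called 38 genes (Ikbkb) and 6 genes (Irf1) and their difference 12, with 0 members in each. Leaving out 1 library called 0 to 1 genes for Ikbkb and for the difference. The control comparison called 2018 genes and 11 members, and 1199 genes and 6 members without a filter, 3171 genes with DESeq2, 4130 genes and 18 members with limma voom, 1069 genes and 3 members from its 8 libraries alone, 1179 genes and 4 members with the length offset and 1020 genes and 4 members with the length and GC offset. Leaving out 1 control library gave 782 to 2404 genes and 1 to 15 members. The member count was 1 without Irf1 control 3, 4 without Irf1 control 2 or Ikbkb control 4, 5 without Irf1 control 1 or Ikbkb control 2, 6 without Ikbkb control 1, 12 without Irf1 control 4 and 15 without Ikbkb control 3. The causes of these changes were not tested, and the fits that left libraries out also had fewer of them. Over the 26 genes given in every library, under all settings and comparisons, 72 values lost a call, 12 gained one and 1256 kept their side of the threshold, with 0 reversals of a called value. With 4 libraries a group, the SE of the fit sets what could be called, and it was largest for Mki67, Cenpe and Cenpf.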
